A study of Mus musculus with 3 samples.

Results

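The peaks described here are listed GLI3 ChIP-seq peaks, with no threshold on their false discovery rate (FDR), that lay between genes, more than 10 kb and up to 100 kb from the closest start of transcription (TSS) of any protein-coding gene. They were chosen by position alone. A peak was a member when its listed summit fell outside every protein-coding gene body of the GENCODE M21 annotation (mm10) and within that range of distances. There were 2112 such peaks among 16854 listed peaks on autosomes, or 12.5%. The whole list held 17149 peaks, of which 289 on X and 6 on Y or unplaced sequence were left out.

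GLI3 was mapped by chromatin immunoprecipitation and sequencing (ChIP-seq) in mouse forelimb buds at day 10.5 of development (32 to 35 somites) to locate the regions this protein occupies in the early limb. There were 2 ChIP libraries and 1 input library of the same tissue, with 2 litters of limb buds in each reaction. The list is deposited under the first ChIP library and has no column that separates replicates. It was taken as a joint call of both ChIP libraries against input, since the paper describes its called GLI3 regions as coming from 2 biological replicates. The list itself does not show how its enrichment and FDR values rest on the 2 libraries. No difference below can therefore be set against replicate error. Libraries were amplified with 15 PCR cycles. The embryos were of mixed strain background, the labels give the genotype as wild type, and the methods describe an endogenous Gli3 allele with an N-terminal 3XFLAG tag. The tag sits on the part of the protein that full-length GLI3 and its repressor share, so the ChIP did not separate these forms. Whole limb buds were dissociated before fixation, and cells that bind GLI3 cannot be told apart from those that do not. The methods state a minimum number of reads for ChIP libraries in general, but the list gives no read totals, so the depth behind each value cannot be given.

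Hedgehog (HH) ligands such as SHH, made in the posterior limb bud, act through the receptor PTCH1 and the membrane protein SMO to control GLI proteins. Without ligand, GLI3 is cut to a shorter form that represses transcription. In the limb bud this gradient of repression helps set the number and identity of digits. GLI proteins bind the DNA sequence GACCACCCA, read as TGGGTGGTC on the other strand, and much of their control of limb genes runs through enhancers far from promoters.

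A match to that sequence with at most 1 mismatch within 250 bp of the summit, a window of 501 bp, is called a GLI motif below. Of the 2112 members, 465 held a GLI motif, or 22.0% against 17.9% of all listed autosomal peaks, and 73 held the exact sequence, or 3.46% against 2.17%. The first set below shows the site and the 26 bases on either side in members with the exact sequence. It holds 3 of the highest-ranked such members, the only member beside Smo, and 1 beside Ptch1. Members are named by their left and right flanking genes and by their rank in the authors' list, coordinates are mm10, and capitals mark the GLI site. Sequences read 5′ to 3′ on the strand that carries GACCACCCA.
Hmga2-Msrb3 (rank 69, chr10:120551995-120552055, plus strand): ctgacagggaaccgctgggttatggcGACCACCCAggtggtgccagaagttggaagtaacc
Rbpms-Dctn6 (rank 237, chr8:34080680-34080740, minus strand): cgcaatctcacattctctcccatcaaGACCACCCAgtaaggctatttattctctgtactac
Hrh2-Cplx2 (rank 410, chr13:54332539-54332599, plus strand): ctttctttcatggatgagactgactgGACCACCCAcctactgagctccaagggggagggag
Tspan33-Smo (rank 911, chr6:29719047-29719107, minus strand): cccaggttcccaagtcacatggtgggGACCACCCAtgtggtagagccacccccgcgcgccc
Ptch1-Ercc6l2 (rank 6187, chr13:63719711-63719771, plus strand): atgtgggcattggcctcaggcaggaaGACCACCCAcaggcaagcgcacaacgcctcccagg
These sites lay 127 bp to the left of the summit beside Hmga2, 38 bp to its right beside Dctn6 and 7 bp to its right beside Cplx2. Beside Smo the site was 55 bp to the left, and beside Ptch1 101 bp to the left. Exact-sequence members at ranks 311 and 358 are not printed, and their sites lay 72 and 210 bp from the summit.

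The second set shows members whose site differed from the consensus by 1 base. Hhat and Ptch1 are HH pathway genes, and Smad6 encodes an inhibitor of BMP signalling. Positions are counted from 1 at the 5′ end of GACCACCCA, with the consensus base first.
Hhat-Sertad4 (rank 1326, chr1:192835122-192835182, plus strand): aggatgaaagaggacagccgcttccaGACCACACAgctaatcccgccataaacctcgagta
Ptch1-Ercc6l2 (rank 4751, chr13:63726209-63726269, plus strand): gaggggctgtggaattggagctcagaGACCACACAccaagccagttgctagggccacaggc
Smad6-Lctl (rank 182, chr9:64058326-64058386, minus strand): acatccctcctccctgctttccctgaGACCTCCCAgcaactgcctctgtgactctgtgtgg
The first 2 of these carried the substitution C7A and the Smad6 member carried A5T. The sites lay 45, 38 and 11 bp from the summit, in the order shown.

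GLI motifs were found in 22.0% of members (95% Wilson interval 20.3 to 23.8). Over all listed autosomal peaks the share was 17.9%. In windows of the same length 2 kb to either side of the members' summits it was 10.8% (9.87 to 11.7, 4224 windows). Peaks within 1 kb of a TSS had a GLI motif in 15.1% of cases (14.3 to 15.9, n = 7851). Intergenic peaks over 100 kb away had one in 18.5% (16.8 to 20.3, n = 1868). The members' interval lay above that of peaks at a TSS, and it overlapped those of all the remaining classes, barely so for peaks over 100 kb away. Intervals on shares cover counting error over peaks only, and peaks were not tested against each other because they are not replicates.

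**Figure D1:**
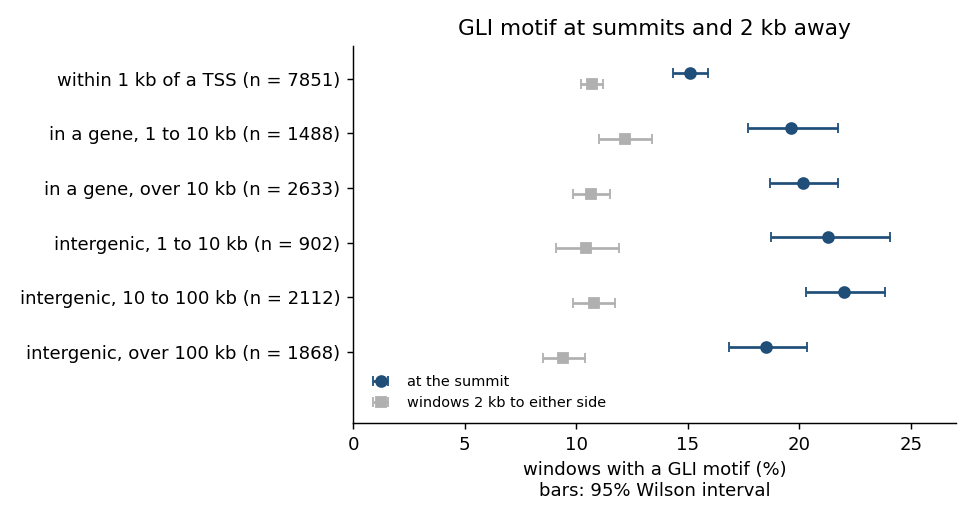
Share of windows with a GLI motif (horizontal axis, %) at the summit (circles) and 2 kb away (squares) in 6 position classes, with 95% Wilson intervals. Summits of intergenic peaks 10 to 100 kb from a TSS stood at 22.0%, against 10.8% for windows 2 kb away.

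The exact sequence was present in 3.46% of members (2.76 to 4.32), against 2.17% of all listed autosomal peaks and 1.16% of peaks within 1 kb of a TSS (0.945 to 1.42). In peaks over 100 kb away it was present in 3.16% (2.46 to 4.05), an interval that overlapped the members'. More than 1 match was found in 62 members (2.94%).

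Members with stronger enrichment held the motif more often. An FDR under 0.05 was listed for 927 members, or 43.9%, near the 42.7% of all listed autosomal peaks. The motif was found in 248 of the 927, or 26.8% (24.0 to 29.7), and in 217 of the 1185 others, or 18.3% (16.2 to 20.6), and these intervals did not overlap. Of the 150 members in ranks 1 to 1000 of the list, 57 held it, or 38.0% (30.6 to 46.0). Among peaks of the same FDR in other classes, the share was 17.4% at TSSs, 26.5% for intergenic peaks 1 to 10 kb away and 23.1% for those over 100 kb away. In windows 2 kb from the called members it was 10.6%. Median log2 fold enrichment over input was 2.35 with a GLI motif, 2.20 without one and 2.51 with the exact sequence.

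Matches gathered near the summit, and more so in members that passed the authors' threshold. The 2112 members held 546 matches at 538 different sites, since windows of close members overlap, of which 156 lay within 50 bp of the summit. That is 0.731 matches per kb, against 0.353 per kb at 150 to 245 bp from it, a ratio of 2.07. In members with an FDR under 0.05 the ratio was 2.53, and in the others it was 1.64. Exact matches were concentrated further, with 31 of 77 within 50 bp and 8 in the outer range.

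**Figure D2:**
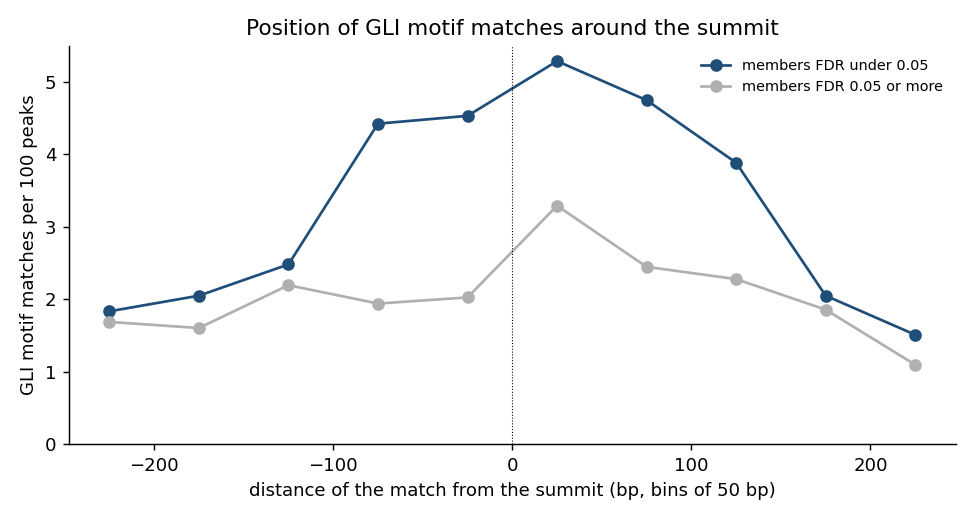
GLI motif matches per 100 peaks (vertical axis) by distance from the summit in bins of 50 bp, for members with an FDR under 0.05 (n = 927) and the other members (n = 1185). Called members peaked at 5.29 matches per 100 peaks just right of the summit and the others at 3.29, and they stood at 1.83 and 1.69 in the leftmost bin.

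The mismatched base was not spread evenly over the site. Position 2 was the mismatch in 109 matches, position 1 in 82 and position 7 in 72. Positions 3, 4 and 6 accounted for 25, 11 and 29. Matches with a mismatch at 3, 4 or 6 were sparser per kb within 50 bp of the summit than in the outer range, with ratios of 0.518, 0.475 and 0.731, whereas a mismatch at position 2 gave a ratio of 2.85 and the exact sequence 7.37. These ratios rest on few sites, since position 4 had 2 matches near the summit and 8 in the outer range. The most frequent single changes were C7A (62 matches), A2C (50) and A2G (48). Next to the 77 exact sites, the base before was A in 45.5% and G in 35.1%, and the base after was G in 45.5% and C in 40.3%.

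Enrichment was described by the authors' maximum log2 fold enrichment of ChIP over input within the peak. The members had a median of 2.23 (95% order-statistic interval 2.21 to 2.27), or 4.70-fold, a middle range of 1.99 to 2.66, and a maximum of 5.29. Peaks within 1 kb of a TSS had a median of 2.27 (2.26 to 2.29) and intergenic peaks over 100 kb away one of 2.17 (2.15 to 2.19). An FDR under 0.05 was listed for 927 members, or 43.9% (41.8 to 46.0), against 42.7% of all listed autosomal peaks. Under an FDR of 0.01 the share was 31.1% (29.2 to 33.1), against 29.1%. Both shares lay near the background of the list. The share under 0.05 was 37.5% (35.4 to 39.7) for peaks over 100 kb away and 46.5% (45.4 to 47.6) at TSSs.

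Peak length went with enrichment. Members were 250 bp long at the median, with a middle range of 150 to 400 bp, and those with an FDR under 0.05 had a median of 400 bp against 150 bp for the others. Since the motif windows had a fixed length, peak length did not enter the motif shares. The lowest log2 enrichment among peaks with an FDR under 0.05 was 2.31, so the threshold acted as a limit on enrichment. The FDR was listed as 0 for 405 members and as 1 for 226.

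Median enrichment differed little with distance. The 619 members at 10 to 25 kb had a median log2 enrichment of 2.23 (2.19 to 2.27), the 686 at 25 to 50 kb one of 2.27 (2.22 to 2.32), and the 807 at 50 to 100 kb one of 2.23 (2.19 to 2.27). These intervals overlapped. Across members, Spearman's rho between log2 enrichment and distance was -0.023, whereas it was 0.823 with peak length and 0.231 with the GC content of the 501 bp window. The members share the same libraries, and these correlations are descriptions.

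**Figure D3:**
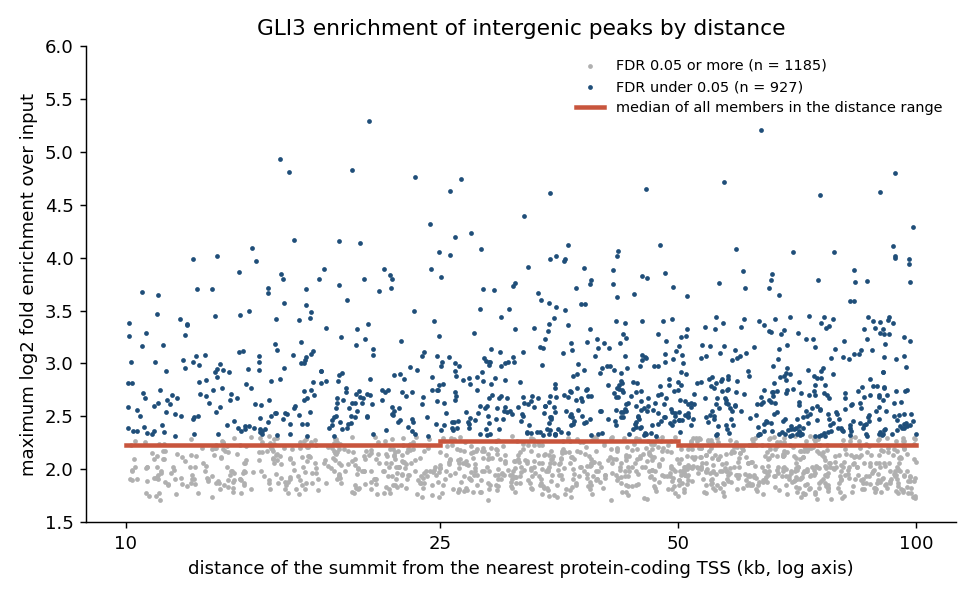
Maximum log2 fold enrichment over input (vertical axis) of each of the 2112 members by distance from the nearest protein-coding TSS (horizontal log axis, kb). Dark points have an FDR under 0.05, and the bars mark medians of 2.23, 2.27 and 2.23 in the 3 distance ranges.

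Peaks on either side of the distance limits were as follows. The member closest to 10 kb lay 10054 bp downstream of the TSS of Nr2f2, which encodes an orphan nuclear receptor, with a log2 enrichment of 2.59. The peak just outside lay 9999 bp from the TSS of Gm4559, at 2.79. At the far limit, a member 99915 bp downstream of the TSS of Wls, which encodes the carrier that brings Wnt ligands to the cell surface, had 2.07. The nearest peak beyond it, 100117 bp from the TSS of Adgrl2, had 1.89.

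Genome sequence that meets the same position rule, outside assembly gaps, came to 511 Mb, so there were 4.13 members per Mb. Density was 3.82 per Mb at 10 to 25 kb, 4.22 at 25 to 50 kb and 4.33 at 50 to 100 kb. Members lay upstream of their nearest TSS in 58.9% of cases (56.7 to 60.9), while 64.3% of the eligible sequence is upstream. Upstream sequence held 3.79 members per Mb and downstream sequence 4.76. By chromosome, density ran from 2.79 per Mb on chromosome 14 to 6.10 on chromosome 12. The share with an FDR under 0.05 ran from 30.9% on chromosome 3, with 34 of 110 members, to 64.8% on chromosome 9, with 57 of 88. It was 43.9% over all members and 42.7% over all listed autosomal peaks. These are the extremes over the autosomes, and nothing is read from them.

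The highest-ranked members lay beside genes of varied roles. The first, at chr4:108362550-108363799 between Coa7 and Shisal2a, had the highest log2 enrichment of all members, 5.29 or 39.2-fold, with its summit 4.73 kb past the end of Shisal2a. It held 1 inexact GLI motif. Next came a peak between Cstad and 1700001O22Rik with 5.21, in a CpG island. It lay inside a noncoding gene, and the nearest noncoding TSS was that of Gm14486. A peak between Tshz3 and Zfp536, both encoding zinc finger transcription factors, had 4.93 and lay 7.80 kb from Zfp536 and 691 kb from Tshz3.

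The others in the first 12 were as follows. A peak 16079 bp downstream of the TSS of Ier5, an immediate-early gene, had a log2 enrichment of 4.81. One 93972 bp upstream of S1pr3, a sphingosine-1-phosphate receptor gene, had 4.80. A peak with 4.76 lay between 1600014C23Rik and Vegfa, the gene of a growth factor for blood vessels, which was 260 kb off. A peak 26576 bp upstream of Pim1, which encodes a kinase that favours cell survival, had 4.74. One 57228 bp upstream of Arid1a, which encodes a subunit of a chromatin remodelling complex, had 4.72. The remaining 4 lay between Cfap161 and Tlnrd1 (4.83), Cpsf6 and Cpm (4.65), Snai1 and Ube2v1 (4.63), and Atg10 and Ssbp2 (4.62). All 12 were listed with an FDR of 0. Of these 12 peaks, 5 held a GLI motif and none held the exact sequence.

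Among exact-sequence members, the highest was 75683 bp upstream of Hmga2, which encodes an architectural chromatin protein, with a log2 enrichment of 4.59. The printed member between Rbpms and Dctn6 had 4.03 and that between Hrh2 and Cplx2 had 3.79. Further ones lay between Slc24a2 and Mllt3 (3.90) and between Kcnj1 and Fli1 (3.84), the latter an ETS family gene. A member 55861 bp upstream of Ezh2, the gene of the Polycomb histone methyltransferase, had 3.44. Between Smug1 and Cbx5, the gene of a heterochromatin protein, the value was 3.42, and between Rnf24 and Smox it was also 3.42. Of the 73 exact-sequence members, 45 had an FDR under 0.05, or 61.6% (50.2 to 71.9), against 43.9% of all members. Over the whole autosomal list, 205 of 366 exact-sequence peaks had an FDR under 0.05, so a raised share was not particular to the members.

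Flanking genes were taken as the nearest protein-coding genes to the left and right of the summit, at any distance. The 2112 members had 2236 different flanking genes, and the nearest TSS belonged to a flanking gene in 98.9%. They lay in tandem gene pairs in 1105 cases, divergent pairs in 537, convergent pairs in 456 and at a chromosome end in 14. HH pathway genes flanked 41 members, or 1.94% (1.43 to 2.62), against 0.439% of the eligible sequence, which is 18.3 members per Mb against 4.13 overall. Limb transcription factor genes flanked 170 members, or 8.05% (6.96 to 9.29), against 3.06% of sequence. Limb signalling genes flanked 114 members, or 5.40% (4.51 to 6.44), against 2.35%. These intervals lay above the sequence shares, but they count each peak as a separate draw. Members gathered beside some genes, with 8 of the 41 HH members beside Boc, 7 beside Cdon and 6 each beside Hhat and Gas1. The intervals may therefore be too narrow. The lists were chosen with earlier results of these data known, so the comparison is a description only.

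**Figure D4:**
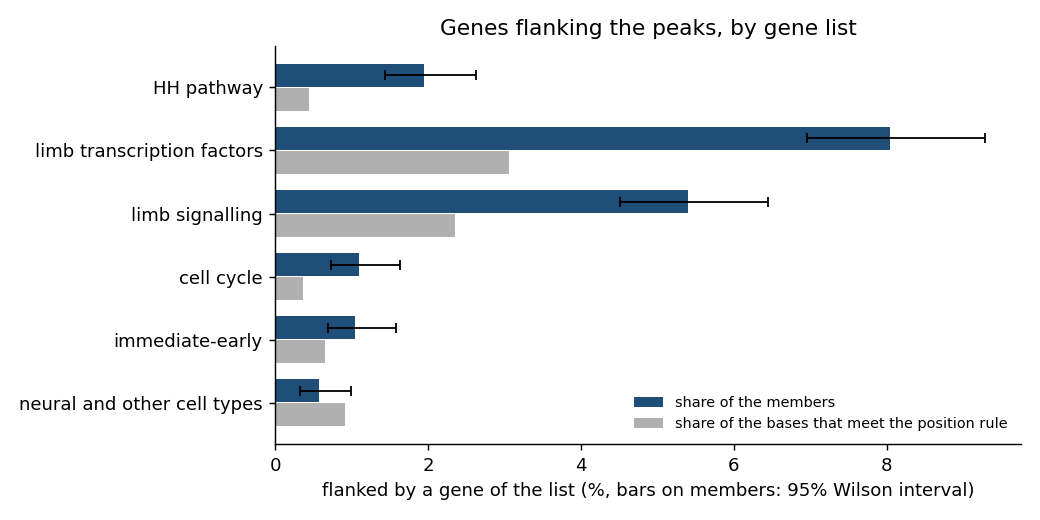
Share (horizontal axis, %) of the 2112 members flanked by a gene of each of 6 lists (dark bars, with 95% Wilson intervals) and share of the eligible sequence so flanked (grey bars). Members exceeded the sequence share most in absolute terms for limb transcription factors, at 8.05% against 3.06%, while genes of neural and other cell types stood at 0.568% against 0.914%.

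The other lists held fewer members, though not always a lower density. Cell cycle genes flanked 23 members, or 1.09% (0.727 to 1.63), against 0.362% of sequence, which is 12.4 members per Mb against 10.9 for limb transcription factors and 9.50 for limb signalling. Immediate-early genes, which respond quickly to stimuli such as tissue handling, flanked 22 members, or 1.04% (0.689 to 1.57), against 0.646%. Both of these intervals also lay above the sequence share, with the same limit. The 23 cell cycle members flanked 7 genes, with 10 beside Mycn, and the 22 immediate-early members flanked 10 genes. Genes that mark neural and other cell types the dissection could hold flanked 12 members, or 0.568% (0.325 to 0.991), against 0.914%, an interval that included the sequence share. Called members were 20 of 41 for the HH list, 77 of 170 for limb transcription factors and 49 of 114 for limb signalling, or 48.8%, 45.3% and 43.0%, near the 42.7% of the whole list. The GLI motif share was 19.5% for the HH list, 16.5% for limb transcription factors and 26.3% for limb signalling. Median log2 enrichment was 2.30, 2.26 and 2.21.

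HH pathway genes flanked members on the ligand, receptor and transducer side. Of 23 listed genes, 18 bordered eligible sequence and 10 had a member, and values for 9 of those 10 follow. Called counts by gene, here and in the next paragraph, stand against 42.7% of all listed autosomal peaks and 48.8% of this list. With so few members per gene, nothing is read from them. Hhat encodes the enzyme that attaches palmitate to HH ligands, and all 6 members between it and Sertad4 had an FDR under 0.05, with log2 enrichments from 2.38 to 3.21, though 3 of them were nearer to the TSS of Sertad4. The highest of them, at chr1:192834650-192835499, holds the C7A site printed above, in a CpG island 107 bp from the TSS of the noncoding gene A730013G03Rik. Cdon and Boc encode co-receptors for HH ligands. Beside Cdon lay 7 members, 5 of them called, the highest with 4.08 at 94.0 kb from the gene, and none held a GLI motif. Of these 5, 4 including the highest were nearer to the TSS of Rpusd4. Beside Boc lay 8 members, 4 called, the highest with 3.38 at 57015 bp upstream.

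Ptch1, the receptor gene and itself an HH target, had 3 members, all called, with log2 enrichments of 2.67, 2.55 and 2.41. They lay 54.0, 153 and 146 kb from it, the last 2 nearer to the TSS of Ercc6l2. The weakest of the 3 held the exact sequence and the middle one the C7A site. Smo, the gene of the transducer, had 1 member with 3.41, an exact site and a CpG island, 16.4 kb away and 0.573 kb past the end of Tspan33. Gas1, a further co-receptor gene, had 6 members and none was called, with log2 enrichments from 1.83 to 2.30. The 3 members beside Disp3 and 2 each beside Scube3 and Gpr161 were not called either.

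Limb transcription factor genes with called members included the following. Their called counts stand against 42.7% of all listed autosomal peaks and 45.3% of the members of this list. With so few members per gene, and some genes chosen after their values were seen, nothing is read from these counts. Lmx1b, which gives the dorsal limb its identity, had 8 members with 5 called, the highest with 3.88 at 60376 bp upstream. Hand2, which acts upstream of Shh in the posterior bud, had 6 with 3 called and a highest value of 3.45, and Alx4, an anterior homeobox gene, had 4 of 4 called, the highest with 3.42. Irx3, which acts in the early proximal and anterior limb, had 5 members with 4 called and a highest value of 3.72. Tbx3 had 11 members with 5 called and Tbx5, needed to start the forelimb, 9 with 3 called, and 7 members lay between these neighbouring genes and count for both. Msx1, a homeobox gene that responds to BMP, had 8 with 5 called, up to 4.11. Nr2f2 had 10 with 3 called, up to 4.08. Sim2 had 1 of 2 called, with 4.05 at 24889 bp upstream.

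Some limb genes flanked only members that were not called. An FDR under 0.05 was listed for only 42.7% of all listed autosomal peaks, so with so few members per gene nothing is read from this. The 3 members flanked by Shox2, a homeobox gene of the proximal limb, and the 1 beside Sox9, the regulator of cartilage formation, had an FDR of 0.05 or more. Those of Shox2 were all nearer to Veph1, and the highest of them was 639 kb from Shox2. The same held for 3 members beside Fgf10, which encodes the mesenchymal FGF ligand that sustains outgrowth, and 2 flanked by Spry2, an FGF antagonist gene, of which 1 each was nearer to another gene. Of the 95 listed transcription factor genes that bordered eligible sequence, 59 had a member, and of 83 signalling genes 40 had one.

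Signalling genes beside high-ranked members included the following, with Hes1 described further on. Called counts by gene here also stand against 42.7% of all listed autosomal peaks, and nothing is read from them. Smad6 had 6 members with 3 called, the highest with 4.12 at 36308 bp upstream and 2 GLI motifs, 1 of them printed above. Hey1, a Notch target, had a member with 4.01 at 41821 bp upstream. Spred1, which encodes an inhibitor of Ras-MAPK signalling, had 5 members with 2 called, up to 3.99 for a peak that lay 149 kb away and nearer to the TSS of Tmco5. Fzd2, a Wnt receptor gene, had 3 members with 2 called, up to 3.80, and 2 held the exact sequence. Fgfr1 had a member with 3.71 and Bmp4 one with 3.63, but those lay 257 and 328 kb off and closer to Tacc1 and Cdkn3. When only the gene of the nearest TSS was counted, 9.23% of members fell to the HH and limb lists, against 15.2% by flanking genes.

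Among the other lists, the highest members were the one near Ier5 for immediate-early genes and, for the cell cycle, one 99064 bp upstream of the cyclin gene Ccnd2, with 4.29. The highest beside a gene of other cell types was 74608 bp upstream of Sox17, a gene of endoderm and endothelium, with 3.16.

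Members were gathered in some intervals between genes. Of 10766 such intervals with eligible sequence, 1215 held a member. In 774 there was 1 member, in 385 there were 2 to 4, and 56 intervals with 5 or more held 396 members, or 18.8%. Another listed peak of any class lay within 10 kb of 43.3% of members (41.2 to 45.4), against 50.9% over all listed autosomal peaks. With neighbours limited to an FDR under 0.05, the members' share was 26.8%.

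The interval between Actrt2 and Ttc34 on chromosome 4 held the most members, 13 over 109 kb, and 10 were called. The called counts in this and the next intervals stand against 42.7% of all listed autosomal peaks, and with so few members per interval nothing is read from them. Their log2 enrichment ran from 1.92 to 3.01, 7 lay in CpG islands, and none had a GLI motif. Between Hes1, a Notch effector gene, and Cpn2 lay 12 members with 7 called, from 1.77 to 3.34. Counting both sides of Hes1 there were 16 members, 10 of them called, up to 3.76, and 10 of the 16 were nearer to the TSS of Cpn2. Snai1, which encodes a repressor active in epithelial to mesenchymal transition, and Ube2v1 also bounded 12, with 7 called and 5 with a GLI motif, which make 4 different sites because windows of neighbouring members overlap. Within 46.3 kb there, 2 members reached 4.63 and 4.61. Of the 12, 11 fell inside a noncoding gene, and the nearest noncoding TSS was that of Gm11476 or Gm11475.

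On chromosome 13, the interval between Ercc6l2 and Hsd17b3 held 11 members, with 6 called, 6 with a GLI motif, and values from 1.80 to 4.06. It adjoins the one beside Ptch1 across Ercc6l2. On chromosome 18, Cxxc5 and Psd2 bounded 11 members, with 6 called and values from 1.82 to 4.14. The interval between Mrpl23 and the imprinted growth factor gene Igf2, chosen after its values were seen, had 9 members and all 9 were called, from 2.47 to 4.20. Of these, 7 lay inside a noncoding gene, 5 of them with Nctc1 as the gene of the nearest noncoding TSS. No cause was tested for any of these groupings.

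**Figure D5:**
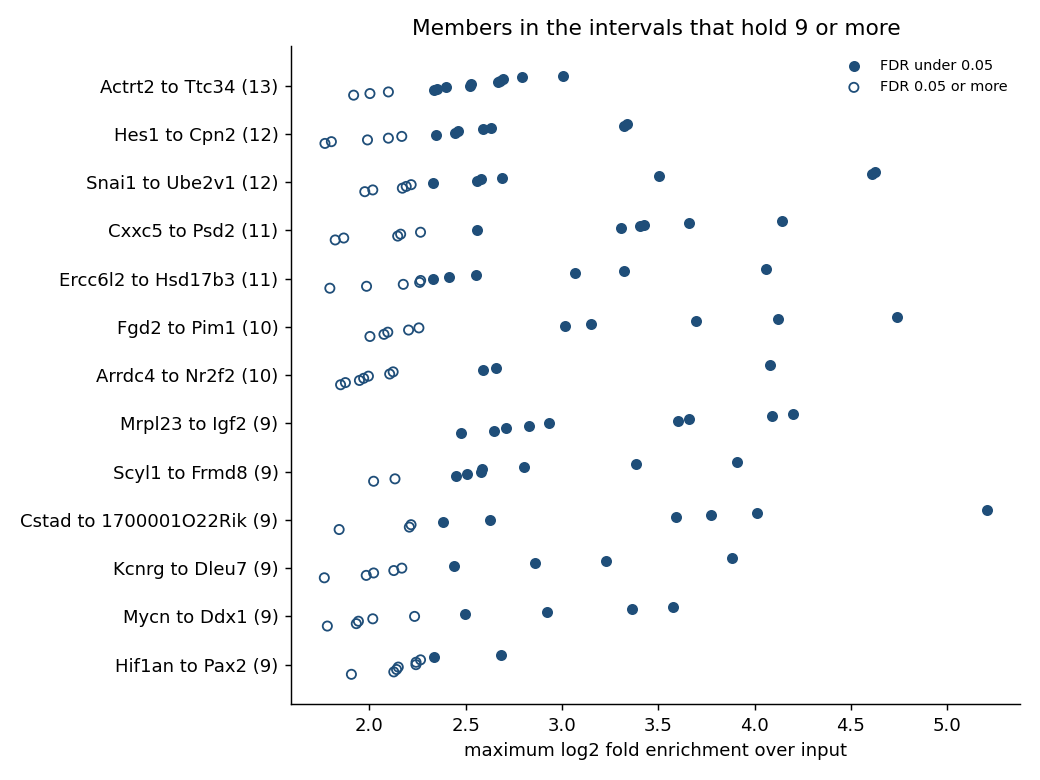
Maximum log2 fold enrichment over input (horizontal axis) of every member in the 13 intervals between neighbouring protein-coding genes that hold 9 or more members (number in parentheses). Filled circles have an FDR under 0.05. The 9 members between Mrpl23 and Igf2 were all filled, and those between Actrt2 and Ttc34 stayed at or under 3.01.

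Sequence at the members stood between that of promoters and that of peaks farther out. Median GC content of the 501 bp window was 50.1%, against 64.9% for peaks within 1 kb of a TSS and 45.5% for peaks over 100 kb away. A CpG island, meaning 200 bp in which GC made up 0.5 or more and observed CpG exceeded 0.6 of expected, was found at 27.1% of members (25.2 to 29.0). Such islands were found at 93.8% of peaks at TSSs and 11.0% of peaks over 100 kb away. Under stricter criteria, with 500 bp, a GC share of 0.55 and a CpG ratio of 0.65, the share of members was 14.7%, against 89.1% at TSSs and 1.87% over 100 kb away. By the first criteria, the share at 10 to 25 kb was 32.1% (28.6 to 35.9), and at 50 to 100 kb 25.2% (22.3 to 28.3). Members in an island had a GLI motif in 17.8% of cases (n = 572) and members outside one in 23.6% (n = 1540). Their matches were also less centred, with a ratio of near to outer density of 1.19 in islands and 2.42 outside.

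The annotation used for the rule leaves out noncoding genes, and some members lay at their starts. The summit was within 1 kb of a noncoding TSS in 230 members, or 10.9%, and inside a noncoding gene in 398. Of the 230, 59.6% had a CpG island, against 23.1% of the 1882 others. Their median log2 enrichments were 2.30 and 2.23. The highest of the 230 were those beside Cfap161, Ier5, Vegfa and Pim1 described above, at 500, 291, 352 and 22 bp from the TSSs of Gm39043, Gm9530, F630040K05Rik and Gm26885. With all annotated genes in the rule in place of coding genes alone, CpG islands fell to 16.5% of the peaks chosen.

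Other transcription factor motifs were counted as exact matches on either strand in the same windows. The E-box CATCTG, bound by HAND and TWIST proteins, was in 44.0% of members, against 30.3% of all listed autosomal peaks, 16.2% at TSSs and 48.1% over 100 kb away. The homeobox core TAATTA was in 20.4%, against 12.6% of all, and the HOX13 motif CAATAAA in 10.8%, against 7.40%. Peaks over 100 kb away stood above the members for both, at 25.4% and 14.03%. The motif GGGCGG of SP and KLF factors went the other way, at 25.9% against 50.2% of all, and the ETS motif CCGGAAG at 4.88% against 11.2%. Peaks over 100 kb away stood below the members for these, at 11.7% and 1.93%. GC content moved with these shares, since in members outside CpG islands GGGCGG was in 13.6% and CATCTG in 48.2%, and its part in them was not tested. The CTCF core AGGGGGCAG was in 1.99% of members and 1.92% of all peaks. Repeat-masked sequence covered the summit in 11.6% of members, against 9.02% of all.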

How the data were processed

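Forelimb buds gave 2 GLI3 ChIP libraries and 1 input. The authors used CisGenome to call peaks and deposited 1 list, filed under ChIP replicate 1. The submitters' processing notes name Bowtie2 2.2.5 and mm10. Leaving out a replicate was not possible. For each peak the deposited list gives an FDR, a q-value computed by the authors. It also gives the maximum log2 fold enrichment over input as the authors computed it, and a T statistic, a score by the authors with no fixed range that sets the rank. A −log10 Poisson p-value per peak, also deposited, stops at 100. Peak lengths were multiples of 50 bp.

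Summits were placed on GENCODE M21 with the TSSs of protein-coding transcripts of protein-coding genes, and sequences were read from the GRCm38.p6 RefSeq genome, the same build as mm10. No peak end (0) lay beyond its chromosome. Shares carry 95% Wilson intervals and medians order-statistic intervals (Python 3.11.15, scipy 1.17.1, statsmodels 0.14.6). No test was run, since peaks are not replicates. The functions were tested on simulated data. Gene lists (323 genes) came from general knowledge, and the members and lists were chosen with earlier results of these data known. The genes named flank the 12 highest-ranked members, the called members beside HH genes, with 1 exception not reported here, the 15 highest beside limb genes, the 5 fullest intervals, up to 10 exact-sequence members, the members at each distance limit and the highest member of each list. Other list genes given with counts were chosen after their values were seen. Alternatives changed the peak position, TSS and gene sets, chromosomes, FDR threshold, motif window, CpG criteria, flanking rule and neighbour distance.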

Additional observations from a re-analysis of the deposited data

How the results depend on the processing

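Over 8 results, 56 alternatives were computed, of which 29 left the value within its interval or within 1.5 times the count and 27 moved it. Placing peaks by their midpoint moved none, nor did adding X. Taking the 5′ end of each gene alone as its TSS moved the upstream share to 61.9%. With all annotated genes, the share under an FDR of 0.05 was 39.9%, the median log2 enrichment 2.19, CpG islands 16.5%, flanking HH and limb genes 4.26%, neighbours within 10 kb 38.5% and upstream 50.04%. Noncoding genes then stand as flanking genes by construction. Under an FDR of 0.05 there were 927 members, with a median of 2.72, GLI motifs in 26.8%, CpG islands in 30.3% and neighbours in 48.4%. Under 0.01 there were 657, or 31.1% of members, with 2.92, 27.9%, 30.3% and 49.5%. GLI motifs were in 12.2% within 100 bp of the summit, 16.5% in the peak as listed, 3.46% for the exact sequence and 10.8% for windows 2 kb away. Strict CpG criteria gave 14.7%. The gene of the nearest TSS alone gave 9.23%. Neighbours within 5 kb and 20 kb gave 36.6% and 55.3%, and neighbours with an FDR under 0.05 gave 26.8%.

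No paired analysis was possible because replicate values are not part of the list, and for that reason no replicate was left out in turn. The list gives no read totals per library, so the limit of detection for weak peaks cannot be given.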
